A study of Rattus norvegicus with 9 samples.

Results

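The genes described here are 54 cyclins, cyclin-dependent kinases and genes of DNA replication and mitosis, followed in cultured rat Sertoli cells of 3 ages. Members were chosen by name: an array probe counted if its gene name, with any "_predicted" ending dropped, was one of the 54 symbols or an older symbol of one, such as Cdc2 for Cdk1. By this rule 77 probes were found and 76 were used. The 1 left out was matched by an older symbol and lies on another chromosome than that member. Probes matched by a current symbol were not held to this check. Cdc45 was not found by name, so that 53 of the 54 members were tested, among 22448 genes tested on the array. The rule itself used no measured value, but the 54 genes were chosen with earlier results of these data known.

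Sertoli cells, the somatic cells that nourish germ cells inside the seminiferous tubule, were isolated from rats aged 5, 12 or 60 days, with 3 one-colour arrays per age. Cells of all 3 ages had spent 4 days in culture in a defined medium with growth factors and had then been given 50 ng/ml oFSH and 1e-07 M testosterone in pulses over 11 h, so every group carried the hormones and no culture without them was compared. The labels give neither strain nor genotype and do not say whether arrays of an age came from separate animals or cultures, so each p-value reflects only how far these 9 arrays differ, which may be technical. Each slide held 1 array of each age at a fixed position, and position and age cannot be told apart. Array by array, 49.1% to 63.0% of probes exceeded background clearly.

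Sertoli cells divide in the fetus and in early postnatal life and stop around puberty, when they form the blood-testis barrier and take on the support of meiotic germ cells. Division is driven by cyclins that switch on cyclin-dependent kinases in turn: D-type cyclins and E-type cyclins lead into DNA synthesis, and A-type and B-type cyclins with Cdk1 lead into mitosis. Many of these genes are switched on together, the S-phase genes by E2F factors and the mitotic genes by a complex that binds the cell cycle genes homology region (CHR), often beside CCAAT boxes that bind NF-Y. Germ cells entering meiosis use some forms of their own, among them cyclin A1.

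Promoters of 5 members are shown because they span the observed patterns: Cdk1, Plk1 and Cdt1 were lower at 60 days, Ccnb2 was not called in any comparison, and Ccna1 was higher at 60 days. Sequences are those of RefSeq on build GRCr8, 5′ to 3′ on the strand of the gene, from 250 bases before to 50 bases after the annotated start. Capitals mark matches on either strand to the CHR (TTTGAA or TTCGAA), the CCAAT box (CCAAT) and the E2F site (TTTCGCG or TTTGGCG), and no matches overlap in these 5 sequences.
Cdk1, chr20:19265043-19265342, plus strand: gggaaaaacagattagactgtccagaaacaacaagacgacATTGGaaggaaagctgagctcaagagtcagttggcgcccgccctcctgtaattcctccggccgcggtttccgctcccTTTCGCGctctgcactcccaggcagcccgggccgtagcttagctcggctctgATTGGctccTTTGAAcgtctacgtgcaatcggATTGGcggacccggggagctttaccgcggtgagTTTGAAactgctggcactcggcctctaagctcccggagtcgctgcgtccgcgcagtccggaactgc
Plk1, chr1:186147408-186147707, plus strand: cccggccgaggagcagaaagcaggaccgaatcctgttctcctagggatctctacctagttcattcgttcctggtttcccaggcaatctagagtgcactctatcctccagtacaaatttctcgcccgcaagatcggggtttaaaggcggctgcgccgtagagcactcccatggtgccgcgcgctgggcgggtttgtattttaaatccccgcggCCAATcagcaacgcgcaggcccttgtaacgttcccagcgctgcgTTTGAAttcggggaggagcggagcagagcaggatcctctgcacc
Cdt1, chr19:67528999-67529298, plus strand: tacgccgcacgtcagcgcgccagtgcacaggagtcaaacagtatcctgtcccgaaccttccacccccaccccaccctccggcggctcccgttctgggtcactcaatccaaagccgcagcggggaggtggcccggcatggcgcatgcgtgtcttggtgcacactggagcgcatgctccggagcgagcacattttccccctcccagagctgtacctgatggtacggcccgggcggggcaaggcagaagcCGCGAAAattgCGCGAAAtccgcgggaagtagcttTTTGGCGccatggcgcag
Ccnb2, chr8:79981609-79981908, minus strand: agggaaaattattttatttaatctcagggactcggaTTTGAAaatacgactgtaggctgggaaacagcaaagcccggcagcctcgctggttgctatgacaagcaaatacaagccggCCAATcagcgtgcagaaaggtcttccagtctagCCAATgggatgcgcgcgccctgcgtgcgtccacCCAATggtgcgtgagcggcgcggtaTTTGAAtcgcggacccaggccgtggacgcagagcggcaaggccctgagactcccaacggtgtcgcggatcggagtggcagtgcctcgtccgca
Ccna1, chr2:141393251-141393550, minus strand: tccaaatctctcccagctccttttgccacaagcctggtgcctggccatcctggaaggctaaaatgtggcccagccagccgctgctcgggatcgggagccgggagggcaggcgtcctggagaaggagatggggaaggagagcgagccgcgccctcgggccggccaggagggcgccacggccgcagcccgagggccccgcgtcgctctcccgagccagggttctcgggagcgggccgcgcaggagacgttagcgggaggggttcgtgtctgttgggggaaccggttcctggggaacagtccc

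Cdk1 held matches to all 3 motifs and Plk1 to the CHR and CCAAT, whereas Cdt1 held 3 E2F matches and neither of the others. Ccnb2, which was not called, held 2 CHR and 3 CCAAT matches, and Ccna1 held none of the 3 motifs. Promoters were in the table for 41 members. Of these, 18 (43.9%) held a CHR match, 28 (68.3%) a CCAAT match and 13 (31.7%) an E2F match, beside 19.7%, 37.5% and 2.21% of all 33469 promoters of the table. Among the 9 such members that were lower at 60 than at 12 days, 5 held each motif in turn. Among the 28 that were not called there, 13 held a CHR match, 21 a CCAAT match and 7 an E2F match. A match of letters is a description of the window and not a site of binding.

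In cells of 60-day-old rats, 12 of the 53 members were called lower than in cells of both younger ages, beside 9.71% of all genes, and 4 were called higher than in both, beside 10.3%. Levels are log2 processed signals with the 75th percentile of each array set to 0, and a call (a rise or a fall) needed a Benjamini-Hochberg adjusted p under 0.05 over all 22448 genes in limma. Between 12 and 60 days 15 members fell, among them Ccnd2 and Ccnd3, Cdk1 and Ccna2, Cdt1 and Mcm2, Rrm2 and Tk1, and Plk1 and Ube2c. The members that rose were Ccna1, Spdya, Tpx2 and Bub1. The 19 called members were 35.8% of the 53 tested, beside 25.3% of all genes. By direction, 28.3% of the members fell, beside 13.1% of all genes, and 7.55% rose, beside 12.3%. The median log2 change was -0.67 for the members and -0.16 for all genes. All 3 arrays of 60 days lay below all 3 of 12 days for 25 members (47.2%), beside 22.6% of all genes.

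Against 5 days, 19 members fell and 5 rose, which were 45.3% of the members beside 35.4% of all genes. Falls made up 35.8% of the members, beside 18.1% of all genes, and rises 9.43%, beside 17.3%. The median change was -0.57, beside -0.09 for all genes. All 3 arrays of 60 days lay below the 3 of 5 days for 23 members, beside 25.2% of all genes, and above them for 5, beside 22.2%. Both comparisons use the same 60-day arrays, so they are given side by side and do not support each other.

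Between 5 and 12 days 2 members were called, Spdya and Cdk6, both higher, which were 3.77% of the members beside 12.5% of all genes called and 6.14% called higher. None fell, beside 6.34% of all genes. The median change was 0.15, beside 0.05 for all genes. The 12-day arrays all lay above the 5-day arrays for 9 members, beside 14.6% of all genes, and all below for 2, beside 13.9%.

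Scaling to the 75th percentile assumes that the bulk of signals was alike between ages, and the counts depend on it. When arrays were scaled to their spike-in controls instead, the median change of all genes from 12 to 60 days was 0.74 and that of the members 0.23. The count of falls then went from 15 to 1 (Ccnd2), and the count of rises from 4 to 5, with Ccna1, Spdya and Tpx2 kept. From 5 to 60 days 13 falls and 3 rises were called on that scale, where all genes had a median of -0.53 and the members one of -1.01. From 5 to 12 days it gave 1 rise and 3 falls, with medians of -1.30 for all genes and -1.20 for the members. On the spike-in scale a smaller share of the members than of all genes was called from 12 to 60 days. The same held from 5 to 12 days. From 5 to 60 days the share of the members called was the larger. The spike-in signal differed between 60 and 12 days by -0.98, -0.29 and -1.44 on the 3 slides, and between 12 and 5 days by 2.15, 0.04 and 1.84. With normexp background correction (on mean spot signals, but on median signals for slide 2, whose files hold no mean) before the percentile scaling, 0, 0 and 4 members were called from 5 to 12, 12 to 60 and 5 to 60 days, and 0.312%, 0.784% and 4.69% of all genes; with normexp and quantile normalization, 2, 19 and 21 were called. The values below are therefore relative to the array as a whole. Arrays of 1 replicate number varied together, and a fit with the slide as a block kept all 45 calls of the 3 comparisons.

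**Figure D1:**
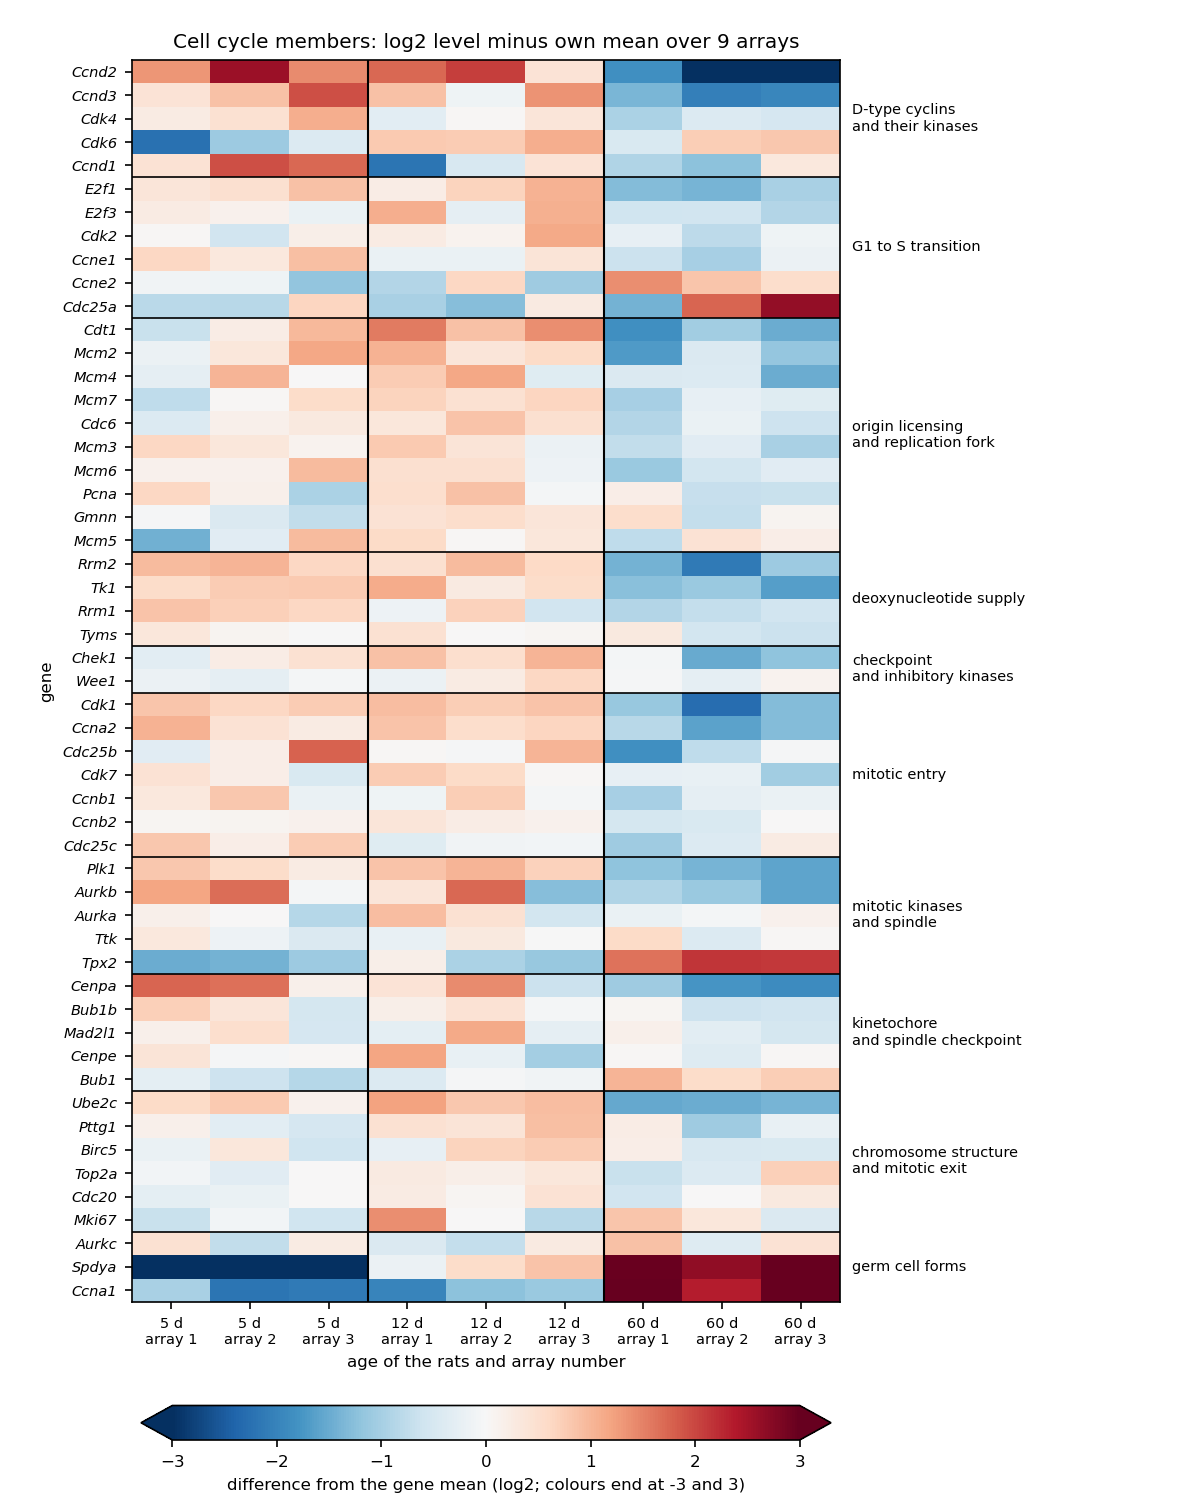
Level of the 53 tested members on each of the 9 arrays, as the log2 difference from the mean of that gene over all arrays, with genes grouped by role and ordered by their change from 12 to 60 days. Blue is below and red above the gene's own mean; the columns of 60 days are blue for most genes, and dark red for Spdya and Ccna1.

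Of the 3 D-type cyclins, which open the cycle by activating Cdk4 and Cdk6, 2 fell between 12 and 60 days and all 3 were lower at 60 than at 5 days. Ccnd2 (cyclin D2) had levels of 2.54, 3.79 and 2.64 on the 5-day arrays, 2.93, 3.29 and 1.63 on the 12-day arrays, and -0.63, -1.94 and -3.32 on the 60-day arrays. The 60-day arrays did not overlap with the others and differed widely among themselves. The change from 12 to 60 days was -4.58 ± 0.68 (SE, 24.0-fold, adjusted p = 5.9e-04), the deepest fall of any member, and from 5 to 60 days -4.96 ± 0.68 (adjusted p = 1.9e-04).

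Ccnd3 (cyclin D3) was at 0.71, 1.17 and 2.23 at 5 days, at 1.17, 0.17 and 1.64 at 12 days, and at -1.08, -1.76 and -1.66 at 60 days, again without overlap of the oldest age. It fell by 2.49 ± 0.49 from 12 to 60 days (adjusted p = 0.0035) and dropped by 2.87 ± 0.49 from 5 to 60 days (adjusted p = 8.7e-04). The files place its probe on chromosome 8 of rn4 and RefSeq places Ccnd3 on chromosome 9, so which locus the probe reads is uncertain. Ccnd1 (cyclin D1) had its highest levels at 5 days (2.02, 3.51 and 3.30), with lower ones at 12 days (-0.61, 1.09 and 1.99) and 60 days (0.68, 0.35 and 1.91). It was called lower at 60 than at 5 days (-1.96 ± 0.68, adjusted p = 0.0439), a call lost in 6 of 12 refits that left out 1 array or 1 slide, and by 1 of its 2 probes only. Its change from 5 to 12 days, -2.12 ± 0.68, had an adjusted p of 0.0702, which became 0.0101 with the slide as a block.

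The kinases differed from each other. Cdk6 was at -3.83, -2.67 and -1.98 at 5 days, at -0.79, -0.83 and -0.50 at 12 days, and at -2.03, -0.85 and -0.77 at 60 days. All 12-day arrays lay above the 5-day arrays, while the 60-day arrays overlapped with both. Cdk6 rose by 2.12 ± 0.50 from 5 to 12 days (adjusted p = 0.0182) and by 1.61 ± 0.50 from 5 to 60 days (adjusted p = 0.0283). The first call was lost without array 1 of 5 days, array 1 or 3 of 12 days, or slide 1 or 2 (adjusted p up to 0.139), and the second in 5 of the 12 refits. Cdk4 fell by 1.22 ± 0.35 from 5 to 60 days (adjusted p = 0.0198), a call lost without any 1 of the 3 slides, without array 1 of 60 days or without array 3 of 5 days (adjusted p up to 0.110).

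At the step from G1 to S phase, E2f1, an activator of S-phase genes, was at 1.94, 2.08 and 2.47 at 5 days, at 1.82, 2.26 and 2.63 at 12 days, and at 0.29, 0.20 and 0.61 at 60 days. The younger ages overlapped and every 60-day array lay below them. E2f1 fell by 1.87 ± 0.33 from 12 to 60 days (adjusted p = 0.00194, and 0.0602 without slide 2) and dropped by 1.80 ± 0.33 from 5 to 60 days (adjusted p = 0.00151). E2f3, a related activator, was dim: it was well above background on 2, 3 and 1 arrays of 5, 12 and 60 days. Its levels were -3.59, -3.71 and -4.04, then -2.75, -4.12 and -2.79, then -4.45, -4.41 and -4.73, and the change from 12 to 60 days of -1.31 ± 0.40 (adjusted p = 0.0358) was lost in 8 of 12 refits.

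Ccne1 (cyclin E1), the partner of Cdk2, had levels of 3.30, 2.99 and 3.57 at 5 days, 2.49, 2.48 and 3.06 at 12 days, and 2.03, 1.67 and 2.51 at 60 days. The 60-day arrays lay below the 5-day arrays and overlapped with those of 12 days. Only the change from 5 to 60 days was called, at -1.22 ± 0.35 (adjusted p = 0.0192). It was not called without slide 1, slide 2, array 2 of 60 days or array 3 of 5 days, and the other Ccne1 probe gave a change of 0.07 there and one of 0.58 from 12 to 60 days, neither called. Ccne2 had a change of 1.35 ± 0.50 from 12 to 60 days (adjusted p = 0.0749, and 0.0257 with the slide as a block) and 1.38 ± 0.50 from 5 to 60 days (adjusted p = 0.0550, with the block 0.0180). Its second probe was called higher from 5 to 60 days (1.67, adjusted p = 0.00427) and not from 12 to 60 days (0.66). Cdk2 changed by -0.89 ± 0.39 from 12 to 60 days (adjusted p = 0.123, with the block 0.0369). Cdc25a, a phosphatase that frees Cdk2 for S phase, was well above background on none of the arrays of 5 or 12 days and on 2 of 3 at 60 days, where its levels were -6.92, -3.77 and -2.86; it was not called.

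Of 10 tested members of origin licensing and the replication fork, 3 fell from 12 to 60 days (Cdt1, Mcm2 and Cdc6), 4 fell from 5 to 60 days (Cdt1, Mcm2, Mcm3 and Mcm6), and none rose. Cdt1 loads the Mcm helicase onto origins. It was at -1.89, -1.02 and -0.25 at 5 days, at 0.32, -0.35 and 0.16 at 12 days, and at -3.07, -2.28 and -2.73 at 60 days. All 60-day arrays lay below the rest, and the 12-day mean was the highest. The change was -2.73 ± 0.44 from 12 to 60 days (6.64-fold, adjusted p = 0.00103) and -1.64 ± 0.44 from 5 to 60 days (adjusted p = 0.0139), the latter lost without slide 2, slide 3 or array 3 of 5 days (adjusted p up to 0.119).

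Mcm2, a subunit of the helicase, was at 0.49, 1.00 and 1.84 at 5 days, at 1.70, 1.04 and 1.25 at 12 days, and at -1.03, 0.23 and -0.48 at 60 days. It did not overlap with either younger age, and fell by 1.76 ± 0.44 from 12 to 60 days (adjusted p = 0.0141) and dropped by 1.54 ± 0.44 from 5 to 60 days (adjusted p = 0.0198). The first call was lost without slide 1, slide 3 or array 1 of 12 days, and the second without slide 3, array 3 of 5 days, or array 1 or 3 of 60 days. The second Mcm2 probe changed the same way, by -1.36 and -1.23, without being called. Cdc6, which acts with Cdt1 at the origin, was at -2.12, -1.56 and -1.41 at 5 days, at -1.37, -0.85 and -1.21 at 12 days, and at -2.58, -1.90 and -2.31 at 60 days. Its 60-day arrays lay below the 12-day arrays and overlapped with the 5-day arrays. The change of -1.12 ± 0.34 from 12 to 60 days (adjusted p = 0.0345) was lost in 9 of 12 refits.

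The other members of the helicase all had negative changes from 12 to 60 days and none was called there. The change was -1.02 for Mcm3, -1.29 for Mcm4, -0.36 for Mcm5, -0.93 for Mcm6 and -1.12 for Mcm7. With the slide as a block Mcm3, Mcm4 and Mcm7 were called, with adjusted p of 0.0236, 0.0184 and 0.0263. From 5 to 60 days Mcm3 fell by 1.04 ± 0.35 (adjusted p = 0.0415) and Mcm6 changed by -1.06 ± 0.37 (adjusted p = 0.0478), and these calls were lost in 9 and 11 of the 12 refits. Pcna, the sliding clamp, changed by -0.83 ± 0.46 and Gmnn, the inhibitor of Cdt1, by -0.48 ± 0.38 from 12 to 60 days, neither of them called.

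Of the 4 members of deoxynucleotide supply, 2 fell from 12 to 60 days and 3 from 5 to 60 days. Rrm2, the regulated subunit of ribonucleotide reductase, was at 0.20, 0.27 and -0.12 at 5 days, at -0.26, 0.19 and -0.14 at 12 days, and at -2.18, -2.87 and -1.84 at 60 days. The younger ages overlapped and the oldest stood apart. It fell by 2.22 ± 0.35 from 12 to 60 days (adjusted p = 8.71e-04) and dropped by 2.41 ± 0.35 from 5 to 60 days (adjusted p = 2.86e-04), in all 12 refits.

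The probe named Tk1 (thymidine kinase of the salvage pathway) was at -0.88, -0.68 and -0.66, then at -0.33, -1.17 and -0.88, then at -2.68, -2.56 and -3.10 at 5, 12 and 60 days. It did not overlap between 60 days and the rest, and fell by 1.99 ± 0.33 from 12 to 60 days (adjusted p = 0.00127) and dropped by 2.04 ± 0.33 from 5 to 60 days (adjusted p = 6.35e-04). The files place this probe on chromosome 3 of rn4, whereas RefSeq places Tk1 on chromosome 10, so its identity is uncertain. Rrm1, the large reductase subunit, was at 1.89, 1.75 and 1.66 at 5 days, at 0.89, 1.74 and 0.46 at 12 days, and at 0.14, 0.31 and 0.46 at 60 days. It was called lower at 60 than at 5 days only (-1.46 ± 0.37, adjusted p = 0.00922), by 1 of its 3 probes, and not without slide 1 or slide 2 (adjusted p up to 0.0938). Tyms, which makes thymidylate, changed by -0.48 ± 0.35 from 12 to 60 days and was not called.

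Of the kinases that restrain the cycle, Chek1, the effector of the replication checkpoint, was at -1.96, -1.43 and -1.18 at 5 days, at -0.76, -1.15 and -0.62 at 12 days, and at -1.71, -3.17 and -2.86 at 60 days. All 60-day arrays lay below those of 12 days, and the first of them within the range of 5 days. Chek1 fell by 1.74 ± 0.42 from 12 to 60 days (adjusted p = 0.0117), a call lost without slide 2, slide 3 or array 2 of 60 days (adjusted p up to 0.123). Wee1, which holds Cdk1 inactive, was at 2.14, 2.06 and 2.25, then 2.14, 2.57 and 2.94, then 2.28, 2.05 and 2.43. Its ages overlapped and its change from 12 to 60 days was -0.30 ± 0.32 (adjusted p = 0.553).

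**Figure D2:**
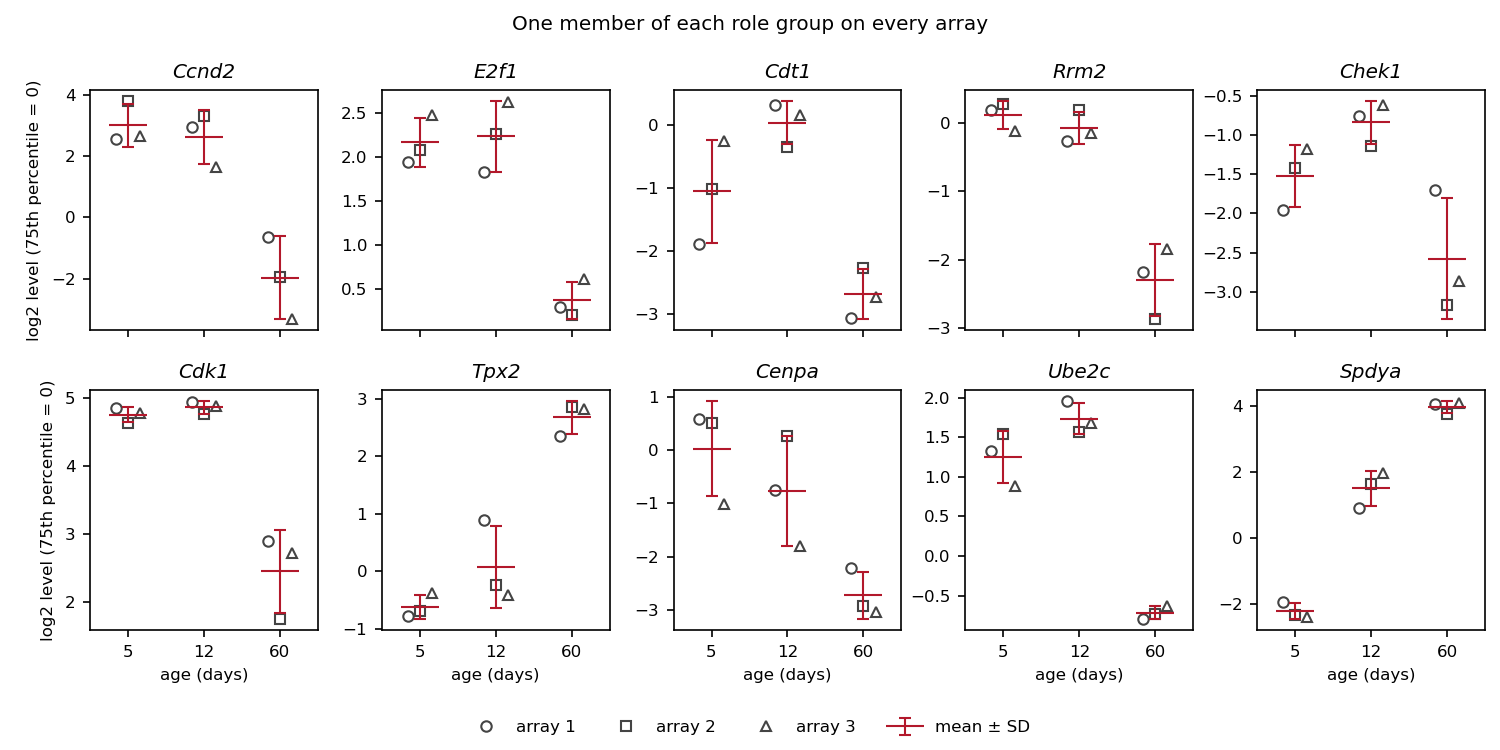
Log2 level of 1 member of each role group on every array, with points for single arrays, shapes for the slides, and bars for the mean ± SD of 3 arrays at 5, 12 and 60 days; the vertical axes differ. Ccnd2, E2f1, Cdt1, Rrm2, Cdk1 and Ube2c stand apart below at 60 days, Tpx2 and Spdya above.

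Of the 7 members of mitotic entry, 2 fell in both comparisons with 60 days, namely Cdk1 and its partner Ccna2 (cyclin A2). Cdk1, the kinase of mitosis, was at 4.85, 4.64 and 4.78 at 5 days, at 4.95, 4.76 and 4.88 at 12 days, and at 2.89, 1.75 and 2.71 at 60 days. Its probe lies at chr20:20043755-20043814 of rn4, on the plus strand. Exons and introns are not stated for probes, since rn4 gene models were not used here. The 6 younger arrays lay close together, and the 60-day arrays far below them. The change was -2.41 ± 0.35 from 12 to 60 days (5.32-fold, adjusted p = 5.68e-04) and -2.31 ± 0.35 from 5 to 60 days (adjusted p = 4.28e-04), and both calls were kept in all 12 refits.

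Ccna2 was at 2.56, 1.95 and 1.75 at 5 days, at 2.36, 2.04 and 2.15 at 12 days, and at 0.69, -0.10 and 0.21 at 60 days. The 60-day arrays did not overlap with the others. Ccna2 fell by 1.92 ± 0.35 from 12 to 60 days (adjusted p = 0.00213, and 0.0542 without slide 2) and dropped by 1.82 ± 0.35 from 5 to 60 days (adjusted p = 0.00185), and a second probe was called in the same direction. Cdk7, the kinase that activates Cdk1, was at 4.42, 4.20 and 3.53, then 4.75, 4.56 and 4.02, then 3.74, 3.78 and 2.94. Its 60-day arrays lay below the 12-day arrays, and the change of -0.95 ± 0.39 had an adjusted p of 0.0976, which was 0.0199 with the slide as a block; its second probe was called lower (-1.05, adjusted p = 0.0278).

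The mitotic B-type cyclins, by contrast with Cdk1, were not called. Ccnb1 was at 2.47, 2.96 and 1.97 at 5 days, at 2.04, 2.89 and 2.10 at 12 days, and at 1.17, 1.88 and 1.96 at 60 days. Its 60-day arrays lay just below the rest, and the change from 12 to 60 days was -0.67 ± 0.40 (adjusted p = 0.257); a second probe gave -1.32, also not called. Ccnb2 changed by -0.56 ± 0.30 (adjusted p = 0.201), also without overlap. Whether these changes differ from that of Cdk1 was not tested. The phosphatases that activate Cdk1 changed by -1.22 ± 0.61 (Cdc25b, adjusted p = 0.179, with the slide as a block 0.0186) and -0.22 ± 0.38 (Cdc25c, adjusted p = 0.735) from 12 to 60 days.

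Of the 5 mitotic kinases and spindle factors, 1 fell from 12 to 60 days (Plk1), 1 rose (Tpx2) and 3 were not called there. Plk1, a kinase of centrosomes and mitotic exit, was at 3.98, 3.72 and 3.41 at 5 days, at 4.04, 4.19 and 3.88 at 12 days, and at 1.97, 1.79 and 1.59 at 60 days. No 60-day array came near the younger ones. Plk1 fell by 2.25 ± 0.31 from 12 to 60 days (adjusted p = 3.41e-04) and dropped by 1.92 ± 0.31 from 5 to 60 days (adjusted p = 5.36e-04), with both of its probes.

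Tpx2, the spindle protein that activates Aurka, was at -0.79, -0.70 and -0.38 at 5 days, at 0.90, -0.24 and -0.42 at 12 days, and at 2.35, 2.86 and 2.83 at 60 days. Every 60-day array was above every younger one, and Tpx2 rose by 2.60 ± 0.39 from 12 to 60 days (6.07-fold, adjusted p = 6.87e-04) and by 3.30 ± 0.39 from 5 to 60 days (adjusted p = 7.27e-05). Aurka itself changed by -0.32 ± 0.43 from 12 to 60 days and was not called.

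Aurkb, the kinase of the chromosomal passenger complex, varied widely at the younger ages, with levels of -0.25, 0.24 and -1.48 at 5 days and -1.06, 0.30 and -2.72 at 12 days, against -2.35, -2.55 and -3.01 at 60 days. The 60-day arrays overlapped with those of 12 days and not of 5 days. It was called lower than at 5 days (-2.14 ± 0.69, adjusted p = 0.0327), a call lost in 7 of 12 refits, and its change from 12 days of -1.48 ± 0.69 had an adjusted p of 0.148, with the block 0.0269. Ttk, the kinase that starts the spindle checkpoint, changed by 0.04 ± 0.37 from 12 to 60 days.

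Among kinetochore and checkpoint genes 1 fell and 1 rose. Cenpa, the histone variant that marks centromeres, was at 0.59, 0.50 and -1.01 at 5 days, at -0.75, 0.26 and -1.81 at 12 days, and at -2.22, -2.93 and -3.04 at 60 days. Array 3 was the lowest of each age, and the 60-day arrays lay below all others. The change was -2.75 ± 0.58 from 5 to 60 days (adjusted p = 0.00335) and -1.96 ± 0.58 from 12 to 60 days (adjusted p = 0.0295), the latter lost in 6 of 12 refits.

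Bub1, a checkpoint kinase at the kinetochore, was at 3.06, 2.74 and 2.49 at 5 days, at 2.94, 3.31 and 3.25 at 12 days, and at 4.36, 3.90 and 4.08 at 60 days. The 60-day arrays lay above all others, and the younger ages overlapped. It rose by 1.35 ± 0.31 from 5 to 60 days (adjusted p = 0.00589), not called without slide 2 or slide 3 (adjusted p up to 0.0675). The rise from 12 to 60 days of 0.95 ± 0.31 was near the threshold (adjusted p = 0.0465) and was lost in 11 of 12 refits. Its relative Bub1b (BubR1) was at 2.63, 2.29 and 1.41, then 2.11, 2.36 and 1.88, then 1.98, 1.31 and 1.35, and its change from 12 to 60 days of -0.57 ± 0.39 was not called. Mad2l1, the checkpoint inhibitor of Cdc20, changed by -0.41 ± 0.46, and Cenpe, a dim kinetochore motor, by -0.09 ± 0.49.

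Of the genes of chromosome structure and mitotic exit, Ube2c alone was called. Ube2c, the ubiquitin-conjugating enzyme of the anaphase-promoting complex, was at 1.32, 1.54 and 0.89 at 5 days, at 1.96, 1.57 and 1.68 at 12 days, and at -0.79, -0.73 and -0.63 at 60 days. The 60-day arrays were nearly equal and far below the rest, and the change was -2.45 ± 0.31 from 12 to 60 days (adjusted p = 2.12e-04) and -1.97 ± 0.31 from 5 to 60 days (adjusted p = 4.91e-04), in all 12 refits.

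Pttg1 (securin) was at 5.19, 4.73 and 4.53 at 5 days, at 5.49, 5.43 and 5.95 at 12 days, and at 5.25, 3.98 and 4.81 at 60 days. The 12-day arrays were above all others, and the change from 12 to 60 days of -0.95 ± 0.39 was not called (adjusted p = 0.105). Cdc20, which directs the anaphase-promoting complex, was at 2.67, 2.76 and 2.98, then 3.19, 3.01 and 3.39, then 2.38, 2.97 and 3.24. The 60-day arrays overlapped with both younger ages, with a change of -0.34 ± 0.33 from 12 to 60 days (adjusted p = 0.507).

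The remaining genes of this group, Mki67, Top2a and Birc5, were not called in any comparison. From 12 to 60 days Mki67 (the Ki-67 antigen) changed by 0.06 ± 0.55, Top2a (topoisomerase II alpha) by -0.39 ± 0.39 and Birc5 (survivin) by -0.64 ± 0.40. Mki67 lay at -1.14, -0.55 and -1.06 at 5 days, at 0.94, -0.46 and -1.31 at 12 days, and at 0.36, -0.12 and -0.90 at 60 days, so that all ages overlapped.

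Of 3 forms known from germ cells, 2 rose (Spdya and Ccna1) and Aurkc was not called. Spdya (Speedy A), which activates Cdk2 at meiotic telomeres, was at -1.92, -2.31 and -2.36 at 5 days, at 0.92, 1.64 and 1.95 at 12 days, and at 4.06, 3.75 and 4.07 at 60 days. The probe lies at chr6:24016357-24016416 of rn4, on the minus strand. The 3 ages were fully separate. Spdya rose by 3.70 ± 0.35 from 5 to 12 days (adjusted p = 1.15e-04), by 2.45 ± 0.35 from 12 to 60 days (adjusted p = 4.74e-04) and by 6.15 ± 0.35 from 5 to 60 days (71.2-fold, adjusted p = 8.41e-07), the only member called in all 3 comparisons.

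Ccna1 (cyclin A1), the germ cell counterpart of Ccna2, was at -2.90, -4.12 and -4.04 at 5 days, at -3.90, -3.15 and -3.03 at 12 days, and at 1.37, 0.43 and 2.05 at 60 days. The probes of the pair lie apart, at chr2:144275239-144275298 for Ccna1 and chr2:123063059-123063118 for Ccna2 of rn4, both on the minus strand. Ccna1 was well above background on 1, 2 and 3 arrays of the 3 ages, and its younger ages overlapped. Ccna1 rose by 4.65 ± 0.49 from 12 to 60 days (25.1-fold, adjusted p = 7.41e-05) and by 4.97 ± 0.49 from 5 to 60 days (adjusted p = 2.07e-05), while Ccna2 fell. Aurkc, the Aurora kinase of meiosis, was at 4.33, 3.13 and 4.13, then 3.43, 3.15 and 4.14, then 4.75, 3.48 and 4.30. Its ages overlapped and its change from 12 to 60 days of 0.60 ± 0.46 was not called (adjusted p = 0.386). The files give the Aurkc probe a span of 32 bases (chr1:65242020-65242051 of rn4), against 60 for the probes of Ccna1 and Ccna2. How specifically the Aurkc probe reads its gene was not tested.

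**Figure D3:**
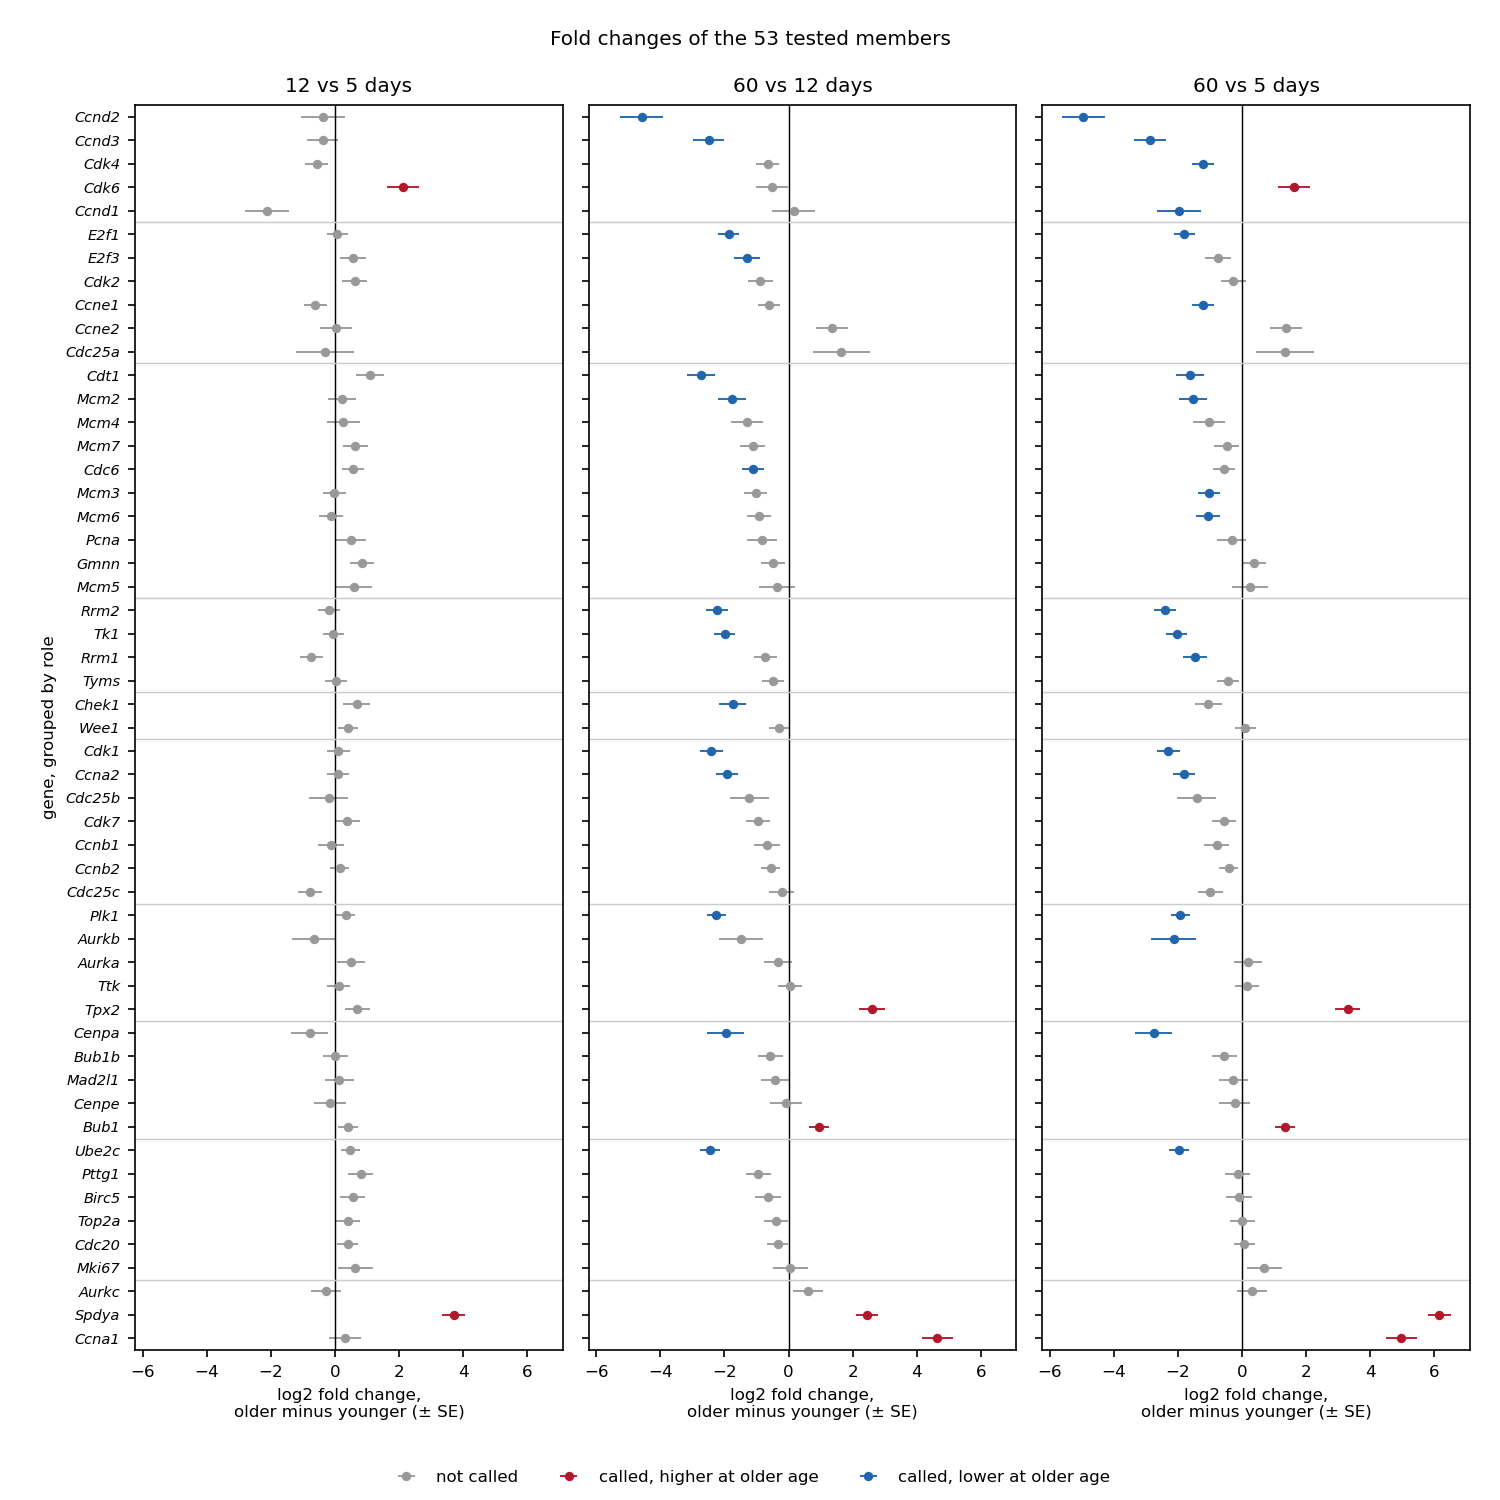
Log2 fold change (older minus younger, ± SE from the model over 9 arrays) of the 53 tested members in the 3 comparisons, grouped by role. Red marks members called higher at the older age (2, 4 and 5) and blue those called lower (0, 15 and 19); the comparisons with 60 days share arrays.

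Markers of other testis cells also changed with age, and in bulk RNA fewer cells of a type and less RNA per cell cannot be told apart. Summed levels of a list are given as multiples of the array's 75th percentile. The 16 spermatocyte markers summed to 1.42 to 2.00 at 5 days, 10.8 to 12.9 at 12 days and 111 to 214 at 60 days. All 16 rose from 12 to 60 days and 11 from 5 to 12 days, the interval in which Spdya also rose. No array of 5 days had 13 of them, Sycp1 and Sycp3 included, well above background, and no array of 12 days had Msh4, Piwil1 or Pgk2. The 16 tested spermatid markers summed to 4.22 to 6.60, 5.02 to 7.04 and 32.0 to 53.3, and 15 rose from 12 to 60 days, as Ccna1, Tpx2 and Bub1 did. This sum leans on Odf2, the brightest of the list, which was well above background on every array. Its log2 levels were 1.80, 1.83 and 2.56 at 5 days and 4.91, 4.16 and 5.15 at 60 days. No 5-day array had Tnp1 or Tnp2 well above background, and at 12 days 8 of the list, Prm2 and Odf1 among them, were below that mark on every array. The 5 tested spermatogonial markers summed to 9.46 to 12.2 at 5 days, 17.0 to 25.9 at 12 days and 57.1 to 76.6 at 60 days. Dazl, Zbtb16, Stra8, Sall4 and Nanos3 of this list of 10 were not tested. The sum at 60 days leans on Uchl1, the brightest of the list there, with log2 levels of 5.59, 5.49 and 6.01. Uchl1 was well above background on every array, at 2.27, 2.37 and 3.14 at 5 days. The median change of the 5 tested markers from 12 to 60 days was -0.39. From 12 to 60 days 2 rose and none fell, and from 5 to 60 days 3 rose and 1 fell. Gfra1 went the other way, with falls from 5 to 12 days (-2.38) and from 5 to 60 days (-2.78). Ddx4 was not well above background on any 5-day array. The part of germ cells in the rises of Spdya, Ccna1, Tpx2 and Bub1 was not tested.

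Peritubular cells and fibroblasts can also divide in culture. Their 13 tested markers summed to 553 to 1072 at 5 days, 278 to 422 at 12 days and 41.8 to 231 at 60 days. From 12 to 60 days 8 of 13 fell with none higher. From 5 to 12 days 5 of 13 fell with none higher, and no member fell on the percentile scale without the block. With the slide as a block Ccnd1 was called lower there (adjusted p = 0.0101). With spike-in scaling Ccnd1, Cdc25c and Cenpa were. No array of 12 or 60 days had Thy1 well above background. On the 60-day arrays 1, 2 and 3 the sum was 231, 95.6 and 41.8, while Ccnd2 was at -0.63, -1.94 and -3.32 and Cdk1 at 2.89, 1.75 and 2.71. The part of peritubular cells and fibroblasts in the falls of the members was not tested. Sertoli markers were present at all ages and changed with age: the 14 genes summed to 43.2 to 47.6, 206 to 231 and 300 to 324. Gata1 was the only one not well above background on any 5-day array. From 5 to 12 days 10 of the 14 rose and none fell, with a median change of 1.99. From 12 to 60 days 5 rose and 1 (Amh) fell, with a median of 0.66.

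**Figure D4:**
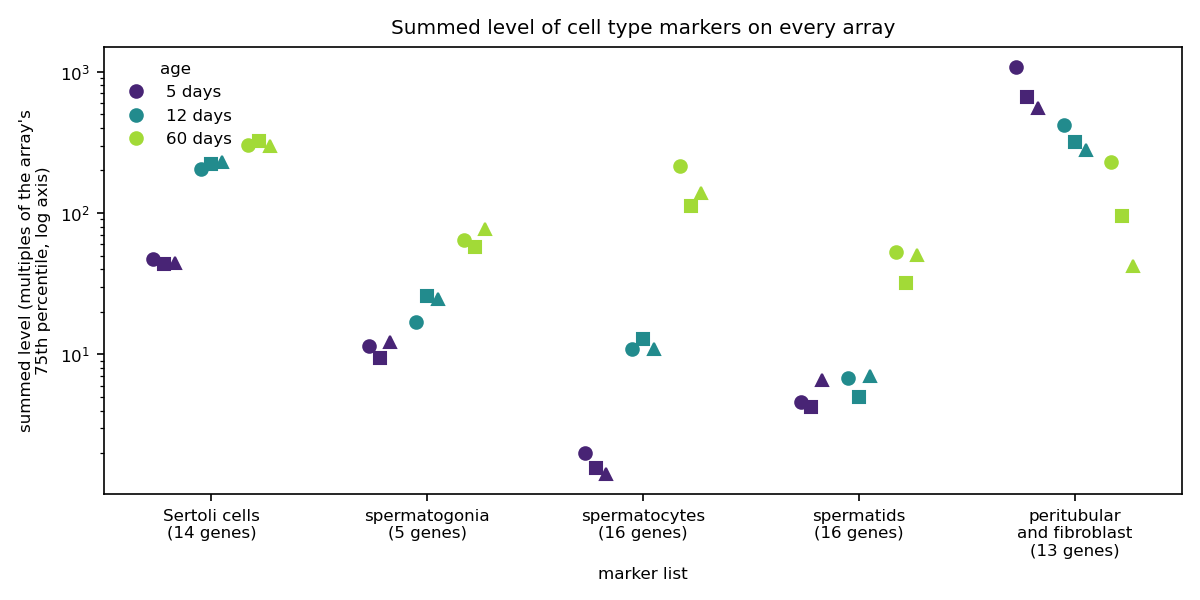
Summed level of 5 marker lists on each of the 9 arrays (multiples of the array's 75th percentile, log axis), coloured by age, with shapes for the slides. Spermatocyte markers stand higher at each later age, spermatid markers at 60 days, and peritubular and fibroblast markers are lowest at 60 days.

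From each list the pair with the highest mean level is named. From 12 to 60 days the log2 change was 3.29 for Hspa2 and 3.71 for Mael (spermatocytes), 2.30 for Odf2 and 4.38 for Akap3 (spermatids), and 2.53 for Uchl1 and -0.41 for Sohlh1 (spermatogonia). It was -0.82 for Tagln and -1.69 for Col1a2 (peritubular cells and fibroblasts), and -0.48 for Inha and 2.87 for Clu (Sertoli cells). Smaller lists were mixed: 1 rose and 2 fell of 7 Leydig markers (Star 0.98, Hsd11b1 0.88), 4 rose of 10 macrophage markers (Cd14 -0.33, Cd68 0.46), 1 rose and 2 fell of 6 endothelial markers (Kdr -3.35, Ramp2 -1.45), and 1 rose of 2 of red blood cells (Alas2 5.70, Hbb-b1 1.47). Of the genes named in this paragraph, Sohlh1, Tagln, Col1a2, Inha, Hsd11b1, Cd14, Cd68 and Hbb-b1 were not called from 12 to 60 days.

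Other genes of the same pathways were counted from lists that hold no member. Of 36 other replication genes tested, 12 fell and 1 rose from 12 to 60 days, which were 33.3% and 2.78% beside 13.1% and 12.3% of all genes, with a median of -0.85. Dut, which clears dUTP, fell by 1.86, Fen1, the flap nuclease, changed by -1.75, and Rpa3, a subunit of the single-strand binding protein, by -1.63, and Rnaseh2a rose by 1.20. From 5 to 60 days 7 fell (19.4%, near the 18.1% of all genes) and 2 rose (5.56%, beside 17.3%), with a median of -0.47. From 5 to 12 days 1 rose (2.78%, beside 6.14%) and none fell, with a median of 0.29. Of 46 other mitosis genes, 10 fell and 1 rose from 12 to 60 days, which were 21.7% and 2.17%, with a median of -0.66. Kif23, a kinesin of cytokinesis, fell by 2.16, Mybl2, a factor of the complex on CHR promoters, changed by -1.69, and Ndc80, the microtubule-binding kinetochore protein, by -1.64, while Nek2, a centrosomal kinase, rose by 3.24. From 5 to 60 days 8 fell (17.4%, near the share of all genes) and 2 rose (4.35%), with a median of -0.13. From 5 to 12 days 1 rose (2.17%) and none fell, with a median of 0.32.

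Spread within an age was similar for the 3 ages. The SD of a member over 3 arrays had a median of 0.40 at 5 days, 0.40 at 12 days and 0.42 at 60 days. It reached 1.20 (Mcm5), 1.51 (Aurkb) and 2.13 (Cdc25a), and was smallest for Ccnb2 (0.03), Top2a (0.08) and Ube2c (0.08) in turn. On the 60-day arrays 37, 43 and 34 of the 53 members lay below their own mean over all arrays. The same count was not made for all genes, whose median change to 60 days was -0.16 from 12 days and -0.09 from 5 days. Of the 53, 49 were well above background on every array, the exceptions being Ccna1, Cdc25a, Cenpe and E2f3, and none was saturated. For 20 members with several probes, no pair of probes was called in opposite directions, but some probes only were called for 2 of them from 12 to 60 days (Cdk7 and Mcm2) and for 6 from 5 to 60 days (Ccnd1, Ccne1, Ccne2, Mcm2, Mcm3 and Rrm1).

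Leaving out an array or a slide removed some calls. From 12 to 60 days 11 of the 19 calls were kept in all 12 refits (Ccna1, Spdya, Tpx2, Ccnd2, Ccnd3, Cdk1, Cdt1, Rrm2, Tk1, Plk1 and Ube2c). From 5 to 60 days 13 of 24 were kept, and the count went to 14 without slide 2. From 5 to 12 days only Spdya was kept throughout, and the count went to 1 without slide 1, slide 2, array 1 of 5 days or array 1 of 12 days.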

How the data were processed

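Total RNA was labelled with Cy3 and hybridised to one-colour arrays of 41012 probes, per the labels. Arrays were read with Agilent Feature Extraction, version 9.5.3.1 for replicate 1 and 10.5.1.1 for replicates 2 and 3, per the file headers. The deposited scanner files hold the background-subtracted intensity of each probe. The authors' deposited log2 table equals the log2 intensity minus the array's 75th percentile within 0.01 for 99.64% to 99.72% of probes (column medians -3.49 to -3.19). Percentiles lay between 149 and 435 intensity units, and the number of arrays limits the precision.

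Here the scanner intensity was scaled the same way. Control spots and 254 failed probes were left out, and the 26599 probes kept had signal well above background in at least 1 age on 2 or more of its 3 arrays. Of several probes, the one brightest on average represented the gene, which gave 22448 genes. In limma 3.58.1 (R 4.3.3) the model held 1 mean for each age over the 9 arrays, with 6 residual degrees of freedom and 4.64 from the prior; contrasts were 2-sided, with Benjamini-Hochberg adjustment over all genes, after a run on simulated data. Probe positions are those of rn4 in the files. Tables and plots were made with Python 3.11.15, pandas 2.3.3, numpy 2.4.6 and matplotlib 3.10.9.

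Members, lists and alternatives were chosen with earlier results of these data known. Up to 3 members of each role group are given in full, starting with called members by size of change and filling up by brightness, and the others more briefly; Ccnb1, Mki67 and Ccnd1 were added after their values were seen. From the lists of other replication and mitosis genes the 3 largest called falls and rises are named, and from each cell type list (Sertoli cells, spermatogonia, spermatocytes, spermatids, peritubular cells and fibroblasts, Leydig cells, macrophages, endothelium, red blood cells) the 2 brightest. Same-numbered arrays share a slide, and what was left after subtracting age means correlated at 0.18 to 0.60 between them, against at most 0.09 for other pairs, so the numbers pair the arrays.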

Additional observations from a re-analysis of the deposited data

How the results depend on the processing

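The counts of called members were recomputed under each alternative (2 from 5 to 12, 19 from 12 to 60 and 24 from 5 to 60 days as reported). A paired fit with the replicate block gave 3, 27 and 28, and beside the blocked values given with single members it called Mcm4, Cdc25b and Cdc25c from 5 to 60 days (adjusted p = 0.0371, 0.00653 and 0.0403) and changed no other call. With the block the share of all genes called also rose in each comparison, so the higher counts are not particular to the members. Median scaling, quantile normalization, the filters on dim probes, testing every probe, fitting only the 6 arrays compared and the deposited table left each count within 1.5 times. Spike-in scaling gave 4 from 5 to 12 days and 6 from 12 to 60 days, and moves every gene of an array by 1 constant. In both of these comparisons a smaller share of the members than of all genes was called on that scale. Normexp background correction, whose input was the median spot signal on slide 2 and the mean on the others, gave 0, 0 and 4, and the cause was not tested; adding quantile normalization to it, an alternative chosen after seeing the data, gave 2, 19 and 21. With normexp and quantile normalization together, the share of all genes called was below the one reported in each comparison. Leaving out 1 array or slide gave 1 to 2, 13 to 20 and 14 to 24. No called member changed direction under any of these alternatives. Ccna1, Cdc25a, Cenpe and E2f3 were not well above background on every array.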
